A study of Mus musculus with 267 samples.

Results

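Binding sites of STAT6 were mapped by chromatin immunoprecipitation and sequencing (ChIP-seq) in bone marrow-derived macrophages (BMDMs) of the laboratory strains BALB/cJ (BALB) and NOD/ShiLtJ (NOD) and of the wild-derived strains PWK/PhJ (PWK) and SPRET/EiJ (SPRET). For each strain 1 list of STAT6 peaks was deposited for untreated cells (basal) and 1 for cells given 20 ng/mL interleukin-4 (IL-4) for 24 h. A 24 h peak that no basal peak of its strain overlapped by 1 bp or more is called gained, a 24 h peak that met a basal peak is called shared, and a basal peak without a 24 h counterpart is called lost. The 8 lists held 185845 of the 255971 basal and 24 h STAT6 peaks of 5 strains, the fifth being C57BL/6J (C57), which serves here for comparison. They came from 16 STAT6 libraries, 2 for each strain and condition, among 267 samples of the series. Marrow of female mice was differentiated with M-CSF, and no group carried an engineered allele. Acetylation of histone H3 at lysine 27 (H3K27ac), a mark of active promoters and enhancers, was read in 16 further libraries and RNA polymerase II (Pol II) in 21, as tags in 1000 bp regions around open chromatin, scaled to 10000000 tags of a library.

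IL-4 binds a receptor whose associated JAK kinases phosphorylate STAT6, which then pairs with itself, enters the nucleus and binds DNA. Its preferred site is a palindrome of TTC and GAA with 4 bases between them, TTCNNNNGAA (called N4 below), while most other STAT proteins favour a spacer of 3 bases, TTCNNNGAA (N3). In macrophages this route is known for alternative activation, in which genes such as Arg1, an arginase, are induced and inflammatory genes are restrained, and for a feedback loop through the inhibitors Socs1 and Cish.

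The sequences of 10 gained sites and 1 lost site that recur in the results below are shown with a further gained site without an N4 match. They were read from the mm10 (GRCm38) reference, which is the C57 sequence and not that of the 4 strains, on the forward strand. Capitals mark the N4 match nearest the centre of the peak, and the windows of Anks1, Vwf, Socs1 and Ier3 hold further N4 matches that are left in lower case. The first 6 were gained in each of the 4 strains.
Ang2 site, chr14:51185882-51186001: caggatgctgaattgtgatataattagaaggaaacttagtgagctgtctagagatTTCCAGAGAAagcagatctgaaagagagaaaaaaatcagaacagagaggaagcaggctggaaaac
Zfp385a site, chr15:103317377-103317496: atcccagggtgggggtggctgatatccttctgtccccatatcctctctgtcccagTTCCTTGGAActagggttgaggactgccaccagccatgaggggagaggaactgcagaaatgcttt
Anks1 site, chr17:27968105-27968224: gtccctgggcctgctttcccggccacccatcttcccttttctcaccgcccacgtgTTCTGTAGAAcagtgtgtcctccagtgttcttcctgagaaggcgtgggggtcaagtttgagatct
Cish site, chr9:107307892-107308011: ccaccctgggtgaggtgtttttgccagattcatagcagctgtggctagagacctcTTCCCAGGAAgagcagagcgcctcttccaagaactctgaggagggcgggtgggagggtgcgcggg
Vwf site, chr6:125529726-125529845: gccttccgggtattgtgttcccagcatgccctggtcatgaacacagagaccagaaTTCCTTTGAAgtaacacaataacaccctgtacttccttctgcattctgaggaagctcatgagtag
Exo5 site, chr4:120913980-120914089: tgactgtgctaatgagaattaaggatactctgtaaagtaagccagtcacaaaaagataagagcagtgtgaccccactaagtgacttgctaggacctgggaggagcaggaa

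The next 5 lay under high-scoring gained peaks or near genes of the IL-4 response, and the last lay under a lost peak.
Socs1 site, chr16:10786067-10786186: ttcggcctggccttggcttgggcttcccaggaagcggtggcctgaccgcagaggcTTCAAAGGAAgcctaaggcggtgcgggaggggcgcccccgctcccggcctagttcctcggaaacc
Ier3 site, chr17:35809619-35809738: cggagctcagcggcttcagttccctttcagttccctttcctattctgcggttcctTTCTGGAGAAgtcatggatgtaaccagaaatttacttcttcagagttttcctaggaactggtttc
Jak2 site, chr19:29239668-29239787: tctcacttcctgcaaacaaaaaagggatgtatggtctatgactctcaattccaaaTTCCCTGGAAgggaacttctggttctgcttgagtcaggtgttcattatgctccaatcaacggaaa
Slc7a2 site, chr8:40851053-40851172: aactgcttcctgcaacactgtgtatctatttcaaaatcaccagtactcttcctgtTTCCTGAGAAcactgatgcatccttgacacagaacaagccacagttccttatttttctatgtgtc
Fbp1 site, chr13:62895343-62895462: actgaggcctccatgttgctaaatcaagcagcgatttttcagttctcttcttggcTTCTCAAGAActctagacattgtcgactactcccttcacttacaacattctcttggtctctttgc
Zfp36l2 site, chr17:84119301-84119410: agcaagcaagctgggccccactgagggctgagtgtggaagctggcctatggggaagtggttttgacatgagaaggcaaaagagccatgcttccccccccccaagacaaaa

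The N4 match in capitals lay at a signed distance of 1 bp at Slc7a2, 5 bp at Zfp385a, 10 bp at Ang2, 22 bp at Jak2 and -39 bp at Cish. The gained Exo5 window and the lost Zfp36l2 window held no TTCNNNNGAA. No window overlapped a coding exon.

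New STAT6 peaks appeared in every strain after IL-4, and the balance of gained to lost peaks differed widely between strains. In BALB, 16432 peaks at 24 h against 11486 at baseline left 8457 gained, 7975 shared and 3512 lost. In NOD the lists were of nearly equal length, 20619 against 20653 peaks, with 8151 gained, 12468 shared and 8186 lost. PWK had the longest 24 h list and a short basal list, 38679 against 14022 peaks, with 25981 gained, 12698 shared and 1324 lost. In SPRET, 35742 peaks at 24 h against 28212 at baseline gave 15853 gained, 19889 shared and 8322 lost. Gained peaks thus made up 51.5% (95% exact binomial interval 50.7 to 52.2) of the 24 h list in BALB, 39.5% (38.9 to 40.2) in NOD, 67.2% (66.7 to 67.6) in PWK and 44.4% (43.8 to 44.9) in SPRET, against 41.2% in C57. Lost peaks made up 30.6%, 39.6%, 9.44% and 29.5% of the basal lists in BALB, NOD, PWK and SPRET.

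These shares rested on 1 reproducible list per group, so no replicate spread could be given, and the intervals cover counting error only. The depth of the STAT6 libraries is not known from the lists, and a list grows with the depth and enrichment of its libraries. With basal and 24 h lists held to equal length by score, the gained shares were 42.0% in BALB, 39.6% in NOD, 38.7% in PWK and 37.3% in SPRET, so that the PWK share no longer stood above the others. Asking for an overlap of 100 bp gave 52.2%, 40.3%, 67.5% and 45.5%.

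**Figure D1:**
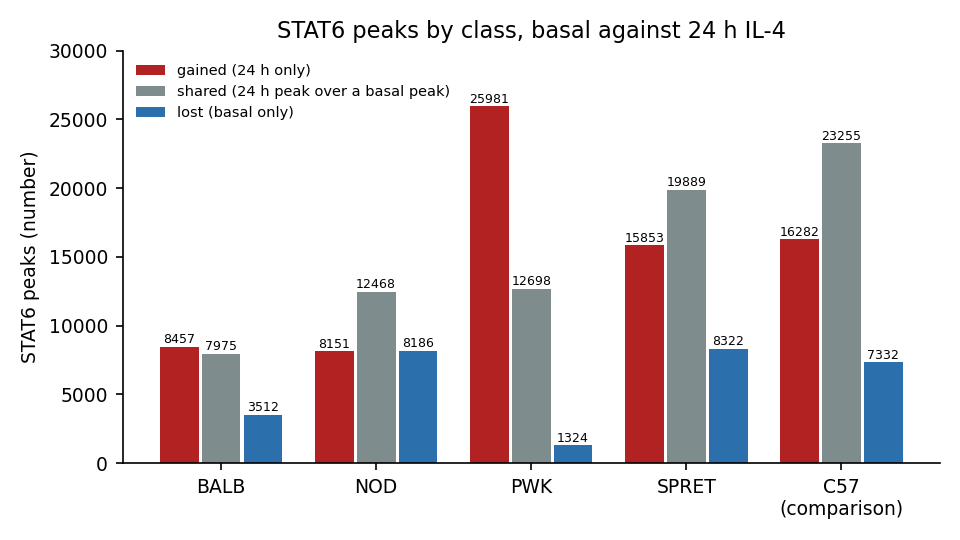
Number of STAT6 peaks (y axis) in each class for the 4 strains and, for comparison, C57, with 1 bar for gained, shared and lost peaks and no error bar because each group has 1 list. PWK has 25981 gained against 1324 lost peaks, whereas NOD has 8151 gained against 8186 lost.

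Gained peaks were weaker than shared peaks in the deposited values. The median deposited score, which runs from 540 to 1000, was 841 in BALB, 852 in NOD, 970 in PWK and 764 in SPRET for gained peaks and 1000 for shared peaks in each strain. The median deposited count of a gained peak was 23, 22, 30 and 32 in the same order, against 32, 29, 58 and 48 for shared and 18, 19, 19 and 19 for lost peaks. Many gained peaks lay where another strain had a basal STAT6 peak. Of the gained peaks, 74.8% in BALB, 53.6% in NOD, 46.8% in PWK and 32% in SPRET lay on a basal STAT6 peak of at least 1 other strain. These shares were not corrected for list length, and the basal lists ran from 11486 peaks in BALB to 30589 in C57. When a basal peak of any of the 5 strains was enough to make a peak shared, the gained share of the 24 h list was 13% in BALB, 18.4% in NOD, 35.7% in PWK and 30.2% in SPRET.

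The N4 motif was common under gained peaks and rare under lost ones. In the central 200 bp, 1831 gained peaks of BALB (21.7%, 95% interval 20.8 to 22.5), 2066 of NOD (25.3%, 24.4 to 26.3), 4054 of PWK (15.6%, 15.2 to 16.1) and 3203 of SPRET (20.2%, 19.6 to 20.8) held TTCNNNNGAA, which reads the same pattern on both strands. Shared peaks held it in 9.91%, 10.5%, 8.32% and 8.51% of cases, and lost peaks in 2.65%, 2.59%, 2.49% and 2.87%. Over all open regions of the strain tables the share was 5.41%, 5.34%, 4.98% and 5.14%, and over regions without any STAT6 peak 3.19%, 3.31%, 2.39% and 2.76%. The shares of lost peaks were thus close to those of regions that STAT6 occupied in neither list. The N3 motif differed less between classes, with 12.3%, 13.6%, 10.2% and 11.7% of gained, 8.87%, 9.02%, 7.51% and 7.99% of shared and 4.81%, 4.64%, 3.47% and 4.72% of lost peaks, against 5.74%, 5.90%, 5.43% and 5.45% of all regions.

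Where a gained peak held N4, the match tended to sit at its centre. It lay within 25 bp of the centre in 49.9% of such gained peaks in BALB, 53.9% in NOD, 51.6% in PWK and 56.9% in SPRET, against 43.3%, 43.7%, 45.8% and 48.4% of shared peaks and 19.4%, 21.7%, 21.2% and 23.8% of lost peaks with a match. Regions without STAT6 gave 25.6%, 25.5%, 23.1% and 22.8%. The strongest gained peaks held the motif most often, since its share in the top 25% and the bottom 25% by score was 41.0% and 13.4% for BALB, 46.5% and 14.2% for NOD, 30.1% and 8.73% for PWK and 37.4% and 12.6% for SPRET. Among the sequences that fit the pattern, TTCCTCAGAA (read on either strand) was the commonest under gained peaks of each of the 4 strains. It lay under 123 gained peaks in BALB (1.45%), 138 in NOD (1.69%), 228 in PWK (0.878%) and 173 in SPRET (1.09%), against 0.614%, 0.626%, 0.583% and 0.503% of shared peaks and 0.146%, 0.156%, 0.0685% and 0.0647% of regions without STAT6. A match describes the letters in the reference and does not by itself mark a bound site.

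**Figure D2:**
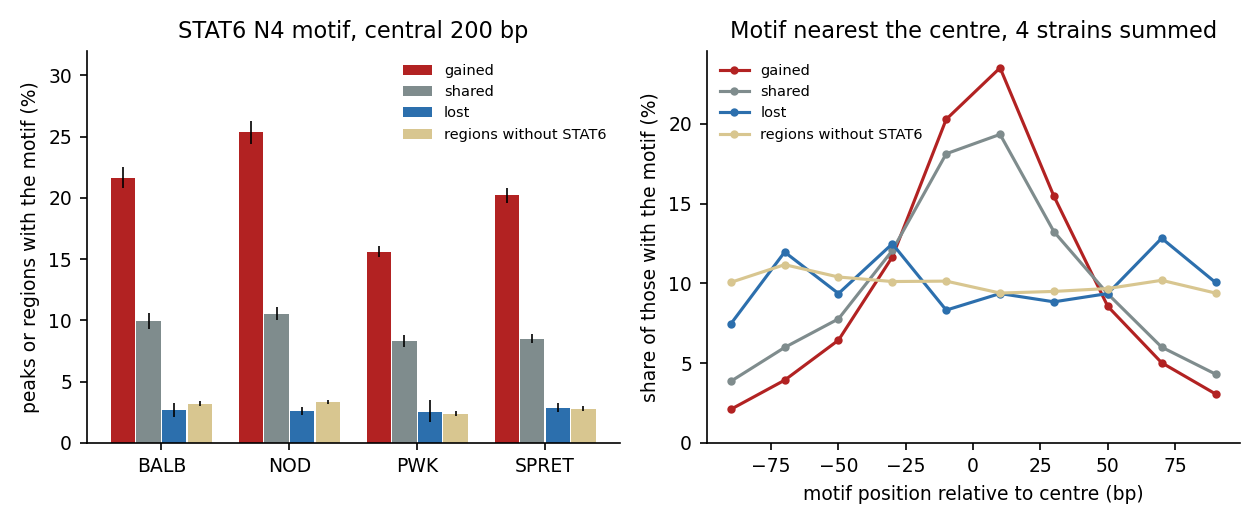
Left, share of peaks or regions (y axis, %) with the STAT6 N4 motif in the central 200 bp by strain, with bars for gained, shared and lost peaks and regions without STAT6 and 95% exact binomial intervals; gained peaks lie between 15.6% and 25.3% and lost peaks between 2.49% and 2.87%. Right, position of the match nearest the centre (x axis, bp) as a share of peaks with the motif (y axis, %), the 4 strains summed; the gained curve peaks at the centre.

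Gained peaks lay mostly outside promoters. Within 1 kb of the start of a protein-coding gene lay 9.78% of gained peaks in BALB, 7.96% in NOD, 10.8% in PWK and 12.2% in SPRET, against 17.8%, 24.1%, 20.4% and 29.1% of lost peaks, 7.91%, 8.34%, 8.02% and 13% of shared peaks and 25%, 21.0%, 22.4% and 23.4% of all regions. Introns held 46.5%, 48.1%, 47.2% and 45.1% of gained peaks and intergenic sequence 40.9%, 41.3%, 39.4% and 39.8%. The median distance to the nearest gene start was 20.5, 23.1, 20.0 and 18.1 kb for gained and 12.4, 10.4, 11.7 and 7.56 kb for lost peaks. Of the 3 classes, lost peaks had the highest promoter share in each of the 4 strains.

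Most peaks of every class lay where the macrophage lineage factor PU1 was bound at baseline, and shared peaks most often. A basal PU1 peak of the same strain overlapped 78.6% of gained peaks in BALB, 66.9% in NOD, 67.0% in PWK and 66.5% in SPRET, against 95.1%, 94.5%, 93.6% and 90.9% of shared peaks and 83.8%, 82.5%, 73.3% and 64.6% of lost peaks. A PU1 peak present at 24 h and absent at baseline overlapped 9.16%, 17.6%, 8.22% and 6.52% of gained peaks, against 1.54%, 1.96%, 1.40% and 2.02% of shared and 2.39%, 3.76%, 2.72% and 2.48% of lost peaks. CEBPb, another myeloid factor, overlapped 24.1% of gained BALB peaks at baseline and 50.4% at 24 h, and 24.5% and 54.5% in NOD. In PWK the CEBPb shares were 35.8% and 47.3%, and in SPRET 32.2% and 33.7%. The lipid-activated receptor PPARg went from 7.84% to 34.7% of gained peaks in BALB, from 11.2% to 49.4% in NOD, from 14.7% to 25.6% in PWK and from 15.4% to 17.8% in SPRET. EGR2, a transcription factor that IL-4 induces, overlapped 37.1%, 27%, 5.70% and 11% of gained peaks at baseline and 41.6%, 20.5%, 16% and 34.5% at 24 h. The lists of these factors changed length themselves, CEBPb for example from 13722 to 35329 peaks in BALB and from 31109 to 29217 in SPRET, so the shares cannot be told apart from the length of the list. EGR2 was also common at open regions without STAT6. In BALB a 24 h EGR2 peak met 3345 of 7218 regions with only gained STAT6 peaks and 14843 of 35569 without STAT6. The counts were 1543 of 6426 and 7375 of 42467 in NOD and 3655 of 17360 and 5376 of 29236 in PWK. In SPRET they were 3685 of 8675 and 7451 of 23245. No such background is given here for PU1, CEBPb and PPARg.

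Few sites were gained in every strain. Overlapping gained peaks of the 4 strains merged into 41632 sites, of which 29447 (70.7%) were gained in 1 strain, 8516 (20.5%) in 2, 2714 (6.52%) in 3 and 955 (2.29%) in 4. PWK alone accounted for 15884 sites (38.2%) and SPRET alone for 8713 (20.9%), against 2751 for BALB and 2099 for NOD. PWK and SPRET also had the longest 24 h lists, for which these counts were not corrected. Of the sites gained in 1 strain, 38.0% had a basal STAT6 peak in another of the 4 strains and 31.7% had one in C57. Sites gained in more strains held N4 more often, with 11.9%, 17.8%, 32.4% and 52.7% for 1, 2, 3 and 4 strains, and lay at promoters less often, with 11.5%, 10.5%, 9.69% and 6.60%. C57, which did not enter the count of strains, had gained the site in 17.2%, 34.5%, 53.8% and 75.2% of cases. The share of gained peaks found in neither C57 list was 7.76% for BALB, 15.7% for NOD, 39.0% for PWK and 48.8% for SPRET.

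The H3K27ac libraries of a group differed in the share of their tags that fell in open regions. The H3K27ac libraries held 5825127 to 20991422 tags and the Pol II libraries 4691644 to 19476882. In BALB, 28.7% of the tags of H3K27ac 24 h replicate 2 fell in the regions, against 51.2% to 58.6% in the other BALB libraries, and in NOD, PWK and SPRET the 24 h replicate 2 was also the lowest, with 42.0%, 38.1% and 39.6%. At 10 of 10 macrophage marker genes, among them Csf1r and Spi1, a region near the start held 16.5 or more basal H3K27ac tags in every strain, whereas of 18 genes marking other cells 3 to 5 had a region and only Ms4a1 and S100a8 passed 16 tags. The 4 tables were scaled separately and hold different regions, so strains were not tested against each other, and bulk libraries cannot tell more responding cells from a larger response per cell. No label ties the replicates to separate animals, so p-values measure the spread between these libraries.

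H3K27ac at gained sites lay above the trend of all regions in each strain, and at shared and lost sites below it. A region was assigned to gained when it overlapped at least 1 gained peak and no shared or lost peak, which left 7218 of 54022 regions in BALB, 6426 of 68932 in NOD, 17360 of 60175 in PWK and 8675 of 54755 in SPRET. Such regions took in only some of the peaks, since 85.1%, 80.4%, 67.8% and 58.2% of gained peaks overlapped any region of the table. Over all regions the median log2 fold of the group means (24 h over basal, pseudocount 1) was -0.26 in BALB, -0.22 in NOD, -0.17 in PWK and -0.07 in SPRET, so classes are given relative to it. Relative to that median, gained regions stood at 0.21, 0.51, 0.13 and 0.22, shared regions at -0.30, -0.29, -0.23 and -0.07 and lost regions at -0.37, -0.34, -0.20 and -0.12. Median-ratio scaling, which brings the median of all regions to about 0, gave 0.20, 0.52, 0.14 and 0.22 for gained regions relative to all. The medians of gained regions before this subtraction were -0.05, 0.29, -0.04 and 0.15, with an SD over pairs of libraries of 0.40, 0.10, 0.14 and 0.13. Without H3K27ac 24 h replicate 2 of BALB that median was 0.25, and without replicate 1 it was -0.47. Median basal H3K27ac was 46.9, 27.8, 33.5 and 26.4 tags in gained regions and 43.5, 29.1, 34.9 and 32.5 in all regions. It was 125.2, 117.9, 99.0 and 88.3 in shared and 92.5, 78.9, 98.0 and 71.0 in lost regions. Classes were not matched for basal level, so the contrast of gained with shared and lost regions cannot be told apart from it.

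With limma (moderated test, Benjamini-Hochberg adjusted p under 0.05 over all regions of a table), 441 gained regions in BALB (6.11%) had higher H3K27ac at 24 h, where 1.6% of all regions did. In NOD 29 (0.451%) did against 0.0566% of all regions, in PWK 227 (1.31%) against 0.487% and in SPRET 311 (3.59%) against 0.994%. Gained regions called lower numbered 23, 0, 4 and 6, where the NOD table as a whole had 0 calls lower and 154 gained NOD regions were lower at an unadjusted p under 0.05. The share of all NOD regions at that unadjusted level is not given here. Of all SPRET regions called, 544 were higher and 105 lower, and with median-ratio scaling 413 and 20. Same-numbered H3K27ac libraries deviated together in every strain (correlations 0.653, 0.721, 0.692 and 0.507). The fits here did not block on the number, and blocking on it gave higher counts in each strain, as listed at the end. The unblocked counts moved with single libraries. In NOD, PWK and SPRET they were 0 without either 24 h library, and without basal replicate 1 or 2 they were 523 or 567 in NOD, 381 or 908 in PWK and 68 or 140 in SPRET. In BALB they were 200 without basal replicate 1, 271 without basal replicate 2, 252 without 24 h replicate 1 and 414 without 24 h replicate 2.

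A rule of size alone, with no test, took in more regions. By the thresholds of the study's methods, group means 2.5-fold apart with at least 16 normalized tags in either group, H3K27ac was higher in 756 gained regions of BALB (10.5%) against 2.84% of all regions, in 1058 of NOD (16.5%) against 3.24%, in 1240 of PWK (7.14%) against 3.1% and in 758 of SPRET (8.74%) against 2.64%. Lost regions past the rule in the lower direction numbered 392 in BALB (13.1%) against 5.13% of all regions, 867 in NOD (12.2%) against 5.14%, 63 in PWK (6.65%) against 3.01% and 76 in SPRET (1.60%) against 0.939%. Gained regions, which were 13.4%, 9.32%, 28.8% and 15.8% of all regions, supplied 49.3%, 47.4%, 66.4% and 52.4% of all regions past the rule in the higher direction. The study asked for the change in H3K27ac and Pol II together, whereas the rule here took each mark alone. With both marks past it, gained regions were 439 of 802 in BALB, 463 of 887 in NOD, 540 of 797 in PWK and 256 of 478 in SPRET. Of gained BALB regions past the rule 756 were higher and 215 lower, and 1023 and 66 with median-ratio scaling, while without 24 h replicate 1 the numbers were 527 and 978 and without 24 h replicate 2 they were 1047 and 159. In PWK, 1240 gained regions were higher and 368 lower, and 1648 and 175 with median-ratio scaling. Over all regions the rule gave 1532 higher and 2772 lower in BALB, 2231 and 3543 in NOD and 1867 and 1814 in PWK, which median-ratio scaling turned into 2382 and 1128, 3047 and 2126, and 2555 and 967.

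**Figure D3:**
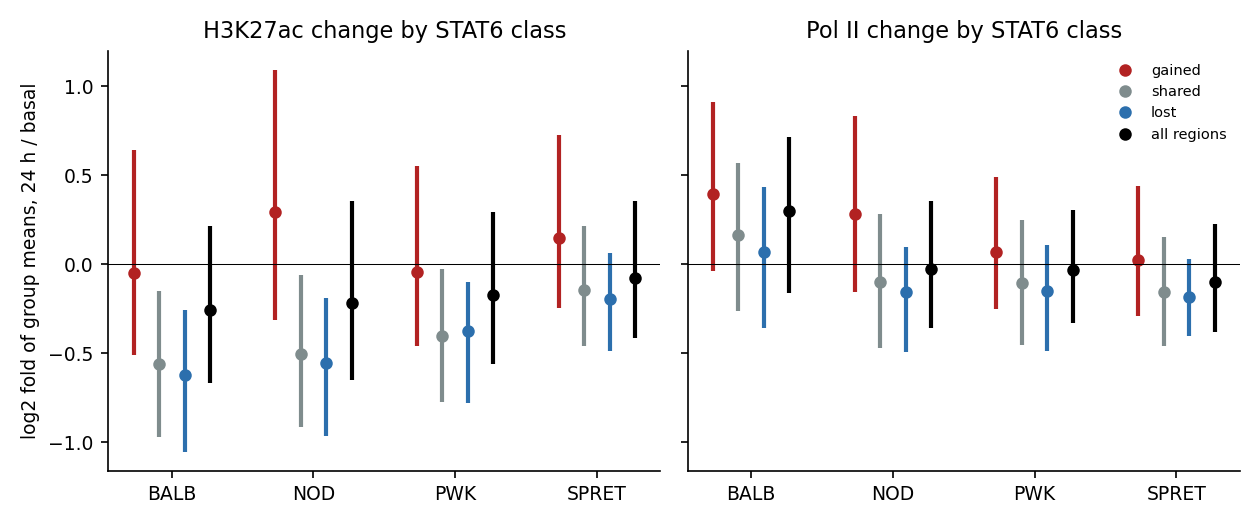
Median (points) and middle 50% (lines) of the log2 fold of group means, 24 h over basal (y axis), for H3K27ac (left) and Pol II (right) by strain (x axis), in all regions and in regions of gained, shared and lost STAT6 peaks. Gained regions have the highest median of the classes in each panel and strain, for example 0.29 for H3K27ac in NOD against -0.50 for shared and -0.55 for lost regions.

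Pol II at gained sites likewise lay above the trend of all regions in each strain, and at shared and lost sites below it. Shared and lost regions again started from more basal tags than gained regions in each strain, and the classes were not matched for this. The median over all regions was 0.30 in BALB, -0.03 in NOD, -0.03 in PWK and -0.10 in SPRET, and gained regions stood 0.10, 0.31, 0.10 and 0.12 above it. Limma called 189 gained BALB regions higher (2.62%) against 0.663% of all regions, 493 in PWK (2.84%) against 1.44% and 163 in SPRET (1.88%) against 0.782%. In NOD limma called 0 regions of any class, a background of 0%. Of gained NOD regions, 953 were higher when p was left unadjusted (under 0.05), 23 were called with edgeR and 158 with DESeq2. The 0% does not apply to those settings, whose shares over all regions are not given here. PWK and SPRET replicates of the same number deviated together, and blocking on that number gave counts of 1784 and 605. The share of all regions called with the block is not given here either. Same-numbered deviations also correlated in BALB and NOD (0.485 and 0.561), for which the block is given at the end. The BALB count was 0 without basal replicate 3 and 82 to 112 without another of the 5 libraries. The PWK count was 64, 90, 130 and 174 without 24 h replicate 2, basal replicate 3, 24 h replicate 3 and basal replicate 2, and the SPRET count ran from 11 without 24 h replicate 1 to 102 without basal replicate 2. By the fold rule with 8 normalized tags, 842 gained regions were higher in BALB (11.7%) against 5.91% of all regions, 631 in NOD (9.82%) against 2.35%, 905 in PWK (5.21%) against 2.66% and 347 in SPRET (4%) against 1.54%.

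H3K27ac stood higher at gained regions with an N4 match than at those without. Relative to all regions the median of gained regions with the motif was 0.89 in BALB, 1.11 in NOD, 0.62 in PWK and 0.70 in SPRET, and without it 0.10, 0.39, 0.09 and 0.16. Past the fold rule were 26.8%, 33.1%, 22.0% and 22.8% of those with the motif and 6.51%, 12%, 5.15% and 6.13% of those without. For Pol II the medians were 0.41, 0.57, 0.33 and 0.33 with the motif and 0.04, 0.25, 0.08 and 0.09 without. Gained regions with both the motif and a 24 h EGR2 peak numbered 539, 240, 347 and 523 and had medians of 1.10, 1.65, 0.76 and 1.00, against -0.01, 0.27, 0.05 and 0.08 for those with neither. Gained regions away from basal PU1 peaks stood at 0.80, 1.15, 0.48 and 0.46, and those on them at 0.13, 0.33, 0.05 and 0.15. By place the medians were 0.03, 0.06, 0.01 and -0.01 for gained promoter regions, 0.24, 0.55, 0.19 and 0.31 in introns and 0.26, 0.60, 0.17 and 0.31 between genes. Median basal H3K27ac was lower with the motif. It was 30.1 against 51.2 tags in BALB, 19.5 against 29.95 in NOD, 26.2 against 34.6 in PWK and 17.04 against 28.6 in SPRET. Basal levels were also lower off PU1 peaks, and in introns and between genes than at promoters. With motif and EGR2 they were lower than with neither, except in PWK (47.5 against 29.9). The groups were not matched for this, so contrasts by motif, PU1 and place cannot be told apart from basal level.

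H3K27ac also stood higher the more strains had gained a site. From 1 to 4 strains the median relative to all regions went through -0.06, 0.14, 0.55 and 1.22 for BALB, 0.16, 0.42, 0.74 and 1.31 for NOD, 0.05, 0.16, 0.45 and 1.05 for PWK and 0.12, 0.25, 0.36 and 1.14 for SPRET. At sites gained in 4 strains, 34.5%, 39.9%, 31.9% and 37.4% of regions were past the fold rule, against 3.22%, 6.35%, 4.59% and 5.50% at sites gained in 1. Of the 955 sites gained in 4 strains, 385 had a region in every table, and at 259 of these (67.3%) the H3K27ac group mean was higher at 24 h in all 4. At 81 the 24 h mean was at least 2.5-fold higher in all 4 strains. Over all regions, each strain taken alone, the 24 h mean was higher in 34.6%, 38.7%, 38.6% and 44.6%, and past the fold rule in 2.84%, 3.24%, 3.1% and 2.64%. The share of regions present in every table that rose in all 4 strains was not computed. H3K27ac could also stand above the trend where no STAT6 peak was called. At sites gained in the 3 other strains where a strain had no STAT6 peak in either list, the median relative to all regions was 0.64 over 406 regions in BALB, 0.50 over 158 in NOD, 0.06 over 25 in PWK and 0.51 over 73 in SPRET. Whether STAT6 bound there below the threshold of the lists cannot be told from them.

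**Figure D4:**
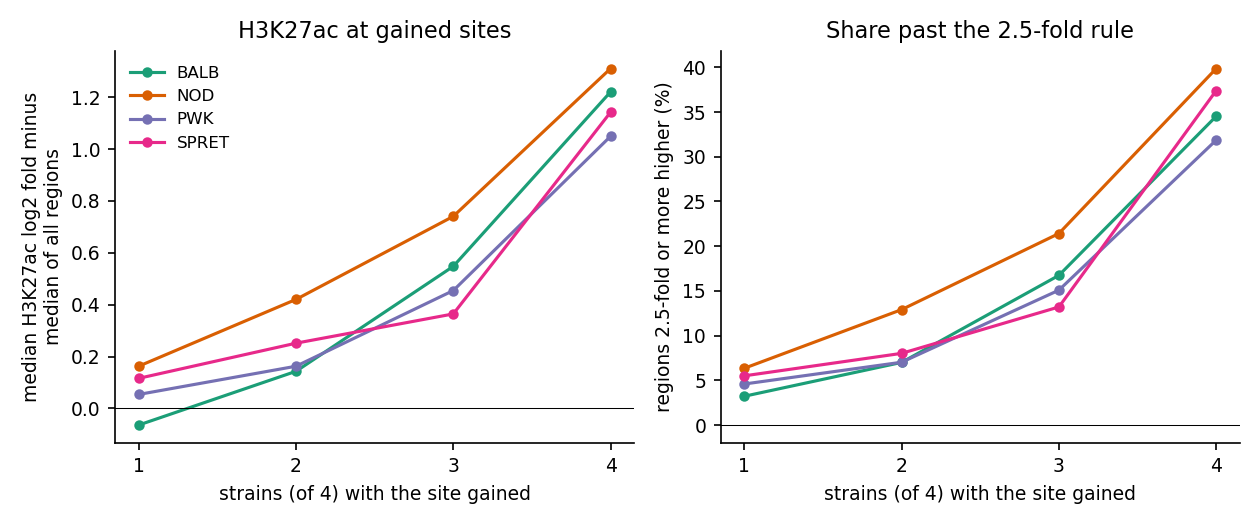
Median H3K27ac log2 fold of gained regions minus the median of all regions (left, y axis) and share of gained regions 2.5-fold or more higher (right, y axis, %) against the number of strains in which the site was gained (x axis), with 1 line for each strain. Each line climbs to its highest point at 4 strains, where the medians are 1.05 to 1.31.

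The 6 sites gained in all 4 strains with the largest H3K27ac rise in the strain where it was smallest are shown library by library, and their rise is a description because it chose them. All 6 were also gained in C57. The first (chr14:51185799-51186064) lay between genes, 9.99 kb downstream of the start of Ang2, which encodes a secreted ribonuclease of the angiogenin family. There H3K27ac went from 4.41 and 6.55 basal tags to 331.32 and 98.61 at 24 h in BALB, and from 12.47 and 10.32 to 482.44 and 217.26 in NOD. In PWK the values were 3.43 and 8.61 against 136.03 and 71.58, and in SPRET 12.82 and 10.54 against 298.86 and 95.85. Every 24 h library was above every basal library, and in each strain 24 h replicate 1 was the higher of the pair. Such separation within a strain was common and is weak evidence by itself. It held for H3K27ac in 13% of all regions in BALB, 16.6% in NOD, 14.6% in PWK and 18.2% in SPRET. Pol II, which the choice did not use, was 0, 0 and 5.47 tags at baseline and 70.34 and 60.3 at 24 h in BALB and rose (limma, adjusted p = 1.67e-09), as it did in PWK, from 0.71, 0.7 and 0.76 to 28.76, 26.94 and 35.92 (limma, adjusted p = 0.000263). In SPRET the 3 basal libraries had 0 tags and the 24 h libraries 69.3, 21.21 and 17.55 (limma, adjusted p = 0.00341). In NOD Pol II was 1.3 and 2.05 against 87.06 and 58.03, which did not pass (limma, adjusted p = 0.0756).

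The Zfp385a site (chr15:103317300-103317562) lay in an intron of a gene for a zinc finger protein. H3K27ac there was 7.35 and 5.36 against 174.7 and 75.75 in BALB, 7.48 and 3.18 against 109.22 and 92.87 in NOD, 10.3 and 3.13 against 210.11 and 137.43 in PWK and 9.4 and 9.22 against 173.68 and 110.92 in SPRET. Pol II at this site was already present at baseline, at group means of 18.7, 21.3, 19.3 and 33.7 tags, and reached 52.2, 45.1, 46.8 and 56.4, which limma called in no strain without a replicate block (adjusted p = 0.492, 0.532, 0.0991 and 0.392). With the block in limma, given here for PWK and SPRET only, the adjusted p was 0.000781 in PWK and 0.100 in SPRET. The Anks1 site (chr17:27968047-27968298) lay 39.2 kb upstream of the start of that adaptor protein gene, and its H3K27ac means went from 0.96 to 87.2 in BALB, 2.06 to 100.4 in NOD, 4.54 to 88.1 in PWK and 3.13 to 53.0 in SPRET. Pol II at Anks1 was not called either without the block (limma, adjusted p = 0.904, 0.546, 0.0542 and 0.199), and with it the adjusted p was 0.000178 in PWK and 0.0644 in SPRET. The Vwf site (chr6:125529677-125529928), 17 kb upstream of the gene of the clotting protein von Willebrand factor, showed both marks, with H3K27ac means of 8.42 against 151.2 in BALB, 4.50 against 126.0 in NOD, 5.79 against 111.0 in PWK and 12.5 against 138.6 in SPRET. Its Pol II rose from 2.04 to 36.3 in BALB (limma, adjusted p = 1.34e-05), from 1.45 to 24.9 in PWK (0.00338) and from 3.33 to 21.6 in SPRET (0.0324), with an adjusted p of 0.11 in NOD.

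The Cish site (chr9:107307817-107308164) lay 11.3 kb downstream of the start of Cish, a STAT-induced inhibitor of cytokine signalling. H3K27ac was 2.94 and 1.19 against 62.5 and 40.97 in BALB, 4.99 and 0.79 against 60.76 and 21.39 in NOD, 8.58 and 3.13 against 142.77 and 148.88 in PWK and 7.69 and 0 against 111.96 and 23.69 in SPRET. No 24 h library overlapped the basal ones, to be read against the shares of all regions given for the Ang2 site. Pol II rose from a mean of 0.987 to 25.6 in BALB (limma, adjusted p = 0.000236), 1.43 to 43.6 in PWK (0.000264) and 0.17 to 16.6 in SPRET (0.0155), and was 0.665 and 18.1 in NOD (0.206). The Exo5 site (chr4:120913898-120914171), near the gene of a DNA exonuclease and without N4, had H3K27ac means of 6.64 against 71.9 in BALB, 6.97 against 102.7 in NOD, 2.42 against 35.3 in PWK and 3.02 against 86.0 in SPRET.

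**Figure D5:**
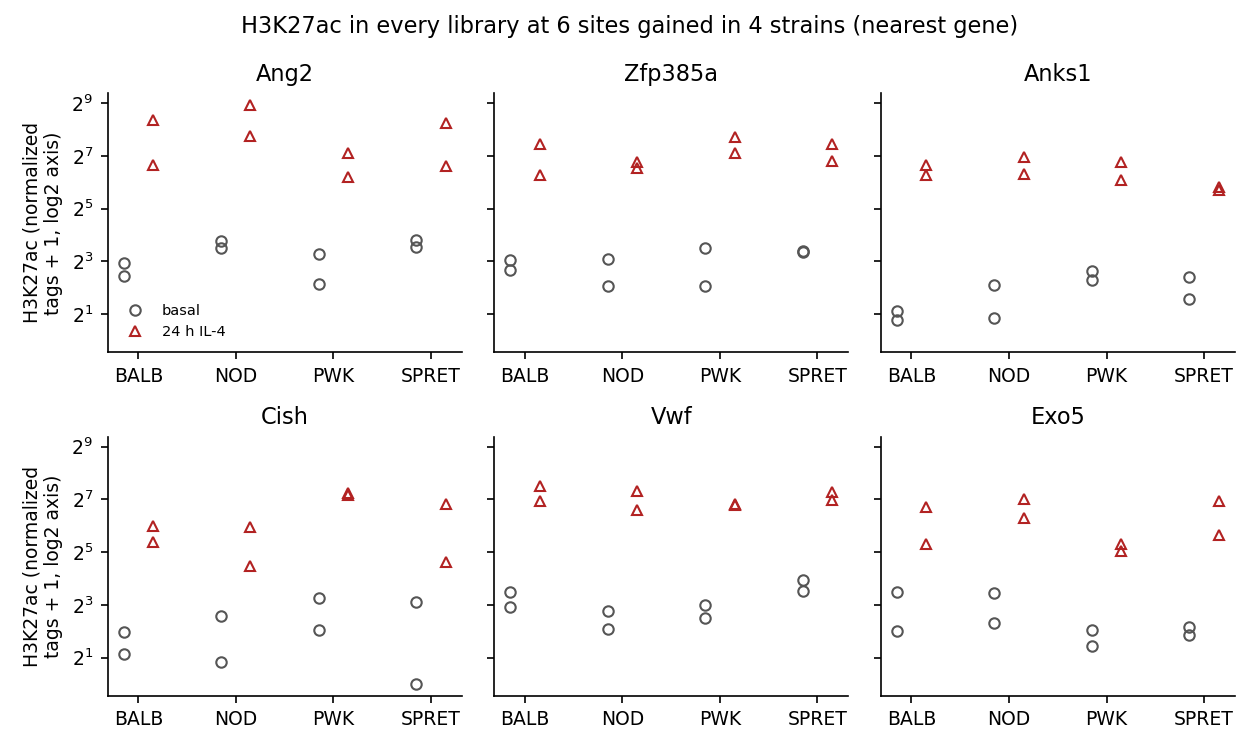
H3K27ac in each library (points; y axis, normalized tags plus 1, log2 axis) at the 6 sites gained in 4 strains, 1 panel a site named by its nearest gene, with basal and 24 h IL-4 libraries of each strain (x axis) in different colours. At each site every 24 h library lies above every basal library, as at the Ang2 site, where the basal libraries are between 3.43 and 12.82 tags and the 24 h libraries between 71.58 and 482.44 before 1 is added. Within a strain, such separation was also found in 13% (BALB) to 18.2% (SPRET) of all regions.

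The gained peaks with the highest deposited score and count included Socs1, a feedback inhibitor of JAK kinases, in all 4 strains. Its peak lay 0.6 kb upstream of the gene start, with a deposited count of 239 in BALB, 212 in NOD, 406 in PWK and 408 in SPRET. The region under it rose in H3K27ac in PWK, from 39.48 and 21.14 to 278.8 and 216.64 (limma, adjusted p = 0.00785), and in SPRET, from 3.42 and 5.27 to 117.25 and 86.15 (0.000247). In BALB, where the region also met a shared peak, the values were 153.58 and 132.26 against 948.79 and 391.11 (0.204), and in NOD 85.61 and 26.99 against 451.33 and 201.5 (0.184). All 24 h libraries were above the basal libraries in each strain, to be read against the shares of all regions given for the Ang2 site. The wide gap between the 24 h replicates was largest in BALB and NOD. The Ier3 peak of BALB, 12 kb upstream of an immediate early gene, had H3K27ac of 10.29 and 29.79 against 177.71 and 99.56 (limma, adjusted p = 0.00105). An intronic peak of Il31ra, a cytokine receptor gene, rose in PWK from 1.72 and 8.61 to 285.54 and 232.87 in H3K27ac (limma, adjusted p = 0.00147) and from a mean of 0.703 to 122.7 in Pol II (1.03e-05).

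Other top peaks behaved differently. At Fth1, the ferritin heavy chain gene, the gained SPRET peak lay over a region where Pol II was 5527.94, 4272.06 and 4515.1 tags at baseline and 3796.07, 2679.63 and 3277.23 at 24 h and H3K27ac was 336.83 and 178.45 against 227.45 and 64.62. Pol II at Fth1 was lower in each of the 3 numbered pairs, by -0.56 on the log2 scale, which limma did not call without the replicate block (adjusted p = 0.406) and called with it (adjusted p = 0.0051), while H3K27ac was not called (adjusted p = 0.423). A peak at Gm10800 (chr2:98666519-98666720 in BALB) ranked first among the gained peaks of BALB and NOD by score and then count, with counts of 1039 and 988. Its region was crowded with tags of both marks in every library of these strains, 4576.1 to 26798.1 for H3K27ac and 2737.76 to 38307.4 for Pol II, and its Pol II change took either sign depending on the setting. It ranked 2 among all regions of the table in H3K27ac in each of the 8 libraries, basal ones included, at tag numbers of a kind that repeated sequence can collect. Whether the reads placed there belong to that position was not tested, so its peak and tags are not read as binding or acetylation. The peak of PWK near St8sia1, a sialyltransferase gene, lay outside the regions of the table, and Atp6v0a1, a proton pump subunit gene, had a top peak 15.2 kb upstream of its start in NOD and SPRET.

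Ranked by the H3K27ac difference in tags, which again chose them, gained regions near Ang2 led in BALB, near Gm10800 in NOD, near Rars in PWK and near Atp6v0a1 in SPRET, with a Rars region next in NOD after a pair of Gm10800 regions. A second gained BALB peak near Ang2, 0.43 kb upstream of its start, lay under 8.08 and 37.53 basal tags and 597.14 and 284.4 at 24 h, and Pol II there rose from 0.64, 5.93 and 6.56 to 63.94 and 147.59 (limma, adjusted p = 4.17e-08). The Rars region, next to an arginine tRNA ligase gene, was high in both NOD and PWK, at 73.98 and 69.06 against 703.76 and 495.3 and at 66.95 and 54.81 against 870.08 and 332.12. Its Pol II in PWK rose from 24.69, 22.38 and 25 to 236.56, 198.26 and 177.03 (limma, adjusted p = 5.15e-05), and in NOD it was 32.44 and 36.97 against 196.74 and 180.84 (0.110). At the Atp6v0a1 start in SPRET Pol II rose from 166.43, 170.55 and 302.92 to 1183.95, 618.48 and 861.56 (limma, adjusted p = 0.01). A SPRET region 111 kb from the start of Auh had Pol II of 14.51, 16.75 and 8.73 against 89.58, 69.98 and 43.4 (limma, adjusted p = 0.0122), and the BALB region upstream of F10, a clotting factor gene, 27.47, 23.13 and 16.41 against 104.44 and 114.26 (0.0628).

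Lost sites with the largest H3K27ac fall lay near Zfp36l2, Nisch, Sh3tc2, Nlrp3, Arrb2 and Il17ra. The site 68.6 kb from Zfp36l2, a gene for a protein that promotes mRNA decay, was lost in both BALB and SPRET, with H3K27ac of 659.16 and 1016.96 against 232.68 and 221.04 in BALB and of 314.6 and 349.66 against 61.71 and 150.77 in SPRET. Pol II there was 104.5, 77.66 and 128.87 against 26.2, 40.29 and 69.26 in SPRET, which limma called with the replicate block (adjusted p = 0.00177) and not without it (0.118). At the promoter of Arrb2, a beta-arrestin gene, Pol II fell in PWK from 223.61, 244.1 and 298.51 to 68.31, 72.19 and 133.41 (limma, adjusted p = 0.0143). At Il17ra, a cytokine receptor gene, Pol II fell in SPRET from 146.11, 86.04 and 87.8 to 37.18, 47.36 and 36.01 (limma, adjusted p = 0.0386). At the promoter of Nlrp3, the inflammasome sensor gene, it was 333.49 and 208.15 against 88.19 and 35.76 in NOD and was not called (limma, adjusted p = 0.304).

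Gained peaks lay within 50 kb of the start of many genes on the lists of the IL-4 response, and of macrophage marker genes as well. A list named for alternative activation effectors had a gained peak near 15, 16, 16 and 15 of its 17 genes in BALB, NOD, PWK and SPRET, where 34.8%, 34.1%, 62.6% and 52.7% of 21840 protein-coding genes did. Feedback inhibitors had such a peak near 8 of 8 genes in each strain, transcription factors near 11, 11, 11 and 9 of 11, the IL-4 receptor and JAK-STAT list near 10, 6, 11 and 10 of 12 and inflammatory genes near 10, 8, 16 and 14 of 16. Macrophage markers had such a peak near 9, 9, 10 and 9 of 10 genes, and markers of other cell types near 6, 5, 12 and 9 of 18. The gained regions of the effector list, 23, 29, 45 and 29 of them, stood at a median of 1.52, 1.94, 1.34 and 1.73 above all regions in H3K27ac, with 8, 1, 7 and 11 called higher by limma and 10, 16, 19 and 17 past the fold rule. Over all regions limma called 1.6%, 0.0566%, 0.487% and 0.994% higher and the fold rule took 2.84%, 3.24%, 3.1% and 2.64%, and over all gained regions the shares were 6.11%, 0.451%, 1.31% and 3.59% and 10.5%, 16.5%, 7.14% and 8.74%, against which the counts of each list here are to be read. The 29, 16, 25 and 17 gained regions of the macrophage markers stood at -0.06, -0.15, 0.08 and -0.01, with 2, 2, 2 and 0 past the fold rule. Gained regions of the feedback inhibitors, 12, 16, 44 and 29 of them, stood at 0.21, 0.92, 0.43 and 1.42, with 3, 0, 10 and 6 called higher. Those of the transcription factors, 27, 19, 44 and 22 of them, stood at 0.65, 1.72, 0.45 and 0.72, with 5, 0, 0 and 3 called higher, and those of the 5 chemokine genes, 7, 6, 19 and 7 of them, at 1.64, 1.56, 0.95 and 1.18, with 2, 0, 0 and 0 called higher. The receptor and JAK-STAT list, with 11, 13, 36 and 18 gained regions, stood at 0.03, 0.08, -0.05 and -0.05, with 2, 0, 1 and 1 called higher. Inflammatory genes, with 17, 8, 36 and 16 gained regions, stood at -0.46, 0.15, -0.40 and 0.03, with 0 called higher in each strain and 1, 0, 0 and 1 called lower. The 10 genes the study used as examples were chosen on these samples and so give no independent support. Their 16, 22, 32 and 13 gained regions stood at 1.74, 1.18, 1.30 and 1.21, with 5, 1, 3 and 2 called higher. The other lists were chosen with earlier results of these data known and give no independent support either. Arg1 and Slc7a2, described below with the effector genes, are also examples of the study.

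Within the JAK-STAT list the Jak2 site, 12.1 kb from the start of that kinase gene, was gained in all 4 strains. H3K27ac was 6.61 and 4.77 against 88.86 and 42.87 in BALB (limma, adjusted p = 3.2e-06), 5.82 and 3.18 against 130.92 and 60.79 in NOD (0.0538), 8.58 and 3.92 against 107.75 and 55.35 in PWK (0.013) and 5.98 and 5.27 against 75.82 and 46.31 in SPRET (0.00258). No 24 h library overlapped the basal ones, and the change passed the test in all strains but NOD. The separation alone is weak evidence, since it held in 13%, 16.6%, 14.6% and 18.2% of all regions in BALB, NOD, PWK and SPRET. By contrast the best 24 h peak near Stat6 itself was shared in all 4 strains, 10.9 kb from the gene start in BALB, NOD and PWK, where H3K27ac was not called, with means of 435.5 against 187.5 in BALB, 548.6 against 204.3 in NOD and 401.9 against 173.5 in PWK (limma, adjusted p = 0.543, 0.25 and 0.368). Among the inhibitors, a PWK peak 32.4 kb from Socs2 was gained with H3K27ac means of 6.02 and 88.1 (limma, adjusted p = 0.00711).

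The effector genes differed in whether STAT6 was already present at baseline. The Arg1 peak 2.83 kb from the gene start was gained in BALB, with H3K27ac of 54.38 and 32.17 against 389.31 and 140.06 (limma, adjusted p = 0.0338). In NOD, PWK and SPRET it was shared, with basal H3K27ac of 119.69 and 104.78 for NOD, 494.41 and 177.74 for PWK and 247.06 and 247.6 for SPRET. The 24 h values there were 424.57 and 343.9, 793.98 and 240.5, and 777.58 and 315.54, and were not called (limma, adjusted p = 0.176, 0.850 and 0.332). The Slc7a2 peak, 11.3 kb from the start of an arginine transporter gene, was likewise gained in BALB and shared in the other strains. H3K27ac there rose from 37.48 and 13.7 to 298.94 and 98.61 in BALB (limma, adjusted p = 0.00205), from 80.68 and 27.41 to 624.27 and 232.87 in PWK (0.0298) and from 57.28 and 73.75 to 414.35 and 215.38 in SPRET (0.00846), with 41.56 and 23.02 against 381.17 and 248.21 in NOD (0.0641). A higher mark was thus found at Slc7a2 under gained and shared peaks alike. The peak 37.4 kb from Clec10a, a lectin gene whose relative Mgl2 lies nearer, was gained in BALB and PWK, with H3K27ac of 13.23 and 29.19 against 174.7 and 114.81 (limma, adjusted p = 0.00196) and of 8.58 and 24.27 against 131.32 and 129.8 (0.0166).

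Some effector peaks were listed in only some of the strains or met a region in only some of the tables. The highest-scoring SPRET peak near Fbp1, a gluconeogenic enzyme gene, lay 7.12 kb from its start over 0.85 and 0 basal H3K27ac tags and 229.22 and 116.31 at 24 h (limma, adjusted p = 2.73e-05). STAT6 was also gained at that position in PWK, where the table had no region, and BALB and NOD had no STAT6 peak there. The highest-scoring PWK peak near Tmem26, 1.98 kb from its start, had H3K27ac of 1.72 and 0.78 against 162.3 and 83.99 (limma, adjusted p = 0.00147), and the position was gained in the other 3 strains too, with 0.83 and 0 against 88.96 and 63.04 in NOD (0.0454) and 6.84 and 1.98 against 84.63 and 22.62 in SPRET (0.0172). A SPRET peak at the start of Pdcd1lg2, a gene for a ligand that inhibits T cells, had H3K27ac of 11.97 and 5.93 against 249.49 and 61.38 (limma, adjusted p = 0.00281), and was gained in the other 3 strains outside any region of their tables.

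Transcription factor genes were also flanked by gained peaks. A peak 34.4 kb from Irf4 was gained in all 4 strains, and H3K27ac rose from 4.41 and 8.94 to 97.89 and 92.42 in BALB (limma, adjusted p = 7.28e-08) and from 8.55 and 7.9 to 219.52 and 140 in SPRET (0.000185), with 5.82 and 15.08 against 81.01 and 125.51 in NOD (0.101). A peak 34.8 kb from Klf4 was gained in all 4, with 5.14 and 2.38 against 74.55 and 43.35 in BALB (limma, adjusted p = 3.79e-08) and 9.14 and 3.18 against 106.32 and 97.93 in NOD (0.0538). The peak 25.6 kb from Batf3 was gained in BALB and NOD and shared in PWK and SPRET, with H3K27ac means of 23.6 and 113.5 in BALB (limma, adjusted p = 0.0218) and 42.4 and 238.7 in SPRET (0.00499). Values of the strains left out at Irf4, Klf4 and Batf3 are not given here. Among the gained regions of the transcription factor list, limma called 0 higher in NOD and 0 in PWK. Msx3, a homeobox gene that the study used as an example, had a gained peak 2.89 kb from its start in BALB and NOD, over 5.14 and 2.38 against 195.03 and 120.05 tags (limma, adjusted p = 3.97e-15) and 3.32 and 4.76 against 266.89 and 166.6 (0.0454). In PWK the same position was also gained, yet H3K27ac was 5.15 and 0 against 10.1 and 1.91 (limma, adjusted p = 0.736), and SPRET had no peak there. At Msx3 a gained STAT6 peak was therefore found with a higher mark in BALB and NOD and without a called change in PWK, a difference that was not tested.

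Near some inflammatory genes H3K27ac fell at a shared peak. The peak 9.36 kb from Cx3cr1, a chemokine receptor gene, was shared in all 4 strains. H3K27ac there fell from 93.33 and 137.02 to 28.61 and 20.96 in BALB (limma, adjusted p = 0.0378), from 195.7 and 198.88 to 41.08 and 36.27 in PWK (0.0292) and from 186.37 and 142.89 to 40.55 and 53.85 in SPRET (0.0194), with 124.68 and 304.01 against 28.21 and 52.34 in NOD (0.197). A shared BALB peak near Nfkbiz, a nuclear regulator of NF-kB, lay over means of 63.2 and 12.5 (limma, adjusted p = 0.00509). In the other direction, H3K27ac at the shared SPRET peak 10.8 kb from Il1b, the gene of a pyrogenic cytokine, rose from 82.8 to 258.5 (limma, adjusted p = 0.0371), with 66.7 against 94.9 in BALB (0.849), 37.6 against 72.7 in NOD (0.505) and 30.8 against 124.6 in PWK (0.0822).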

How the data were processed

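STAT6 peaks of 16 libraries were analysed with 16 H3K27ac and 21 Pol II libraries of the same strains. According to the methods, reads were aligned by the authors to each strain's genome with bowtie2 and moved to mm10 positions; the authors called HOMER peaks in each replicate and kept those reproducible by IDR. A single list per group resulted. The deposited score and count of a peak are the authors' values, and they ranked peaks within a list only. The deposited signal values are tags in 1000 bp regions, which the authors normalized to 10000000 tags per library, with replicates kept apart. Multiplying by the library total gave whole reads, within rounding, for 100% of the values. This scaling leaves unequal shares of tags in regions as they are, and fold changes with a pseudocount understate low regions.

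Peaks were classed by overlap of 1 bp. Gene positions were those of GENCODE vM21 (mm10), and 96% of the promoter regions in the authors' annotation lay within 1 kb of a gene start. Each table was fitted with limma 3.58.1 in R 4.3.3 (lmFit, eBayes with trend) on log2(normalized tags + 1), basal against 24 h in each strain and mark, with no filter and Benjamini-Hochberg adjustment over all regions. Some sites are covered by 2 overlapping regions. Alternatives were edgeR 4.0.16 and DESeq2 1.42.0 on the whole reads, median-ratio scaling, a pseudocount of 5, a filter on low values, a replicate block, lists of equal length and leaving out each library. The fit was checked on simulated reads, with 100 regions changed at each size. Of those changed 4-fold in H3K27ac, limma recovered 17 in BALB, 1 in NOD, 6 in PWK and 25 in SPRET. For Pol II it recovered 3, 0, 52 and 61. At 16-fold it recovered 96, 81, 79 and 96 for H3K27ac and 61, 29, 97 and 96 for Pol II. A region that was not called may therefore still have changed. Replicate pairs differed beyond counting noise (chi-square 3.37 to 17.5 per degree of freedom).

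Same-numbered Pol II replicates deviated together in PWK (correlations 0.631, 0.438 and 0.514) and SPRET (0.442, 0.414 and 0.425), so the numbers were taken to pair them. Same-numbered H3K27ac replicates (0.507 to 0.721) and Pol II replicates of BALB and NOD (0.485 and 0.561) correlated as well. The main fits did not block on the number in any strain or mark. Named sites were, in each strain, the 3 gained and 2 lost sites with the largest H3K27ac difference in tags among regions past the fold rule with replicates that did not overlap, the 3 gained peaks of highest score and count, the 6 sites gained in 4 strains with the largest lowest-strain change, and the best 24 h peak within 50 kb of each listed gene, of which some are described. Sites and lists were chosen with earlier results of these data known. Other tools were Python 3.11.15, pandas 2.3.3, numpy 2.4.6, scipy 1.17.1, pyfaidx 0.9.0.4 and matplotlib 3.10.9.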

Additional observations from a re-analysis of the deposited data

How the results depend on the processing

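The gained share of the 24 h list with lists of equal length was 42.0% for BALB, 38.7% for PWK and 37.3% for SPRET; with the upper 50% of the list by score it was 35.5%, 27%, 46.2% and 27% in BALB, NOD, PWK and SPRET, against basal peaks of any strain 13%, 18.4%, 35.7% and 30.2%, and with a 100 bp overlap 40.3% in NOD and 45.5% in SPRET. The median H3K27ac log2 fold at gained sites was 0.14 in NOD with a filter on low values and 0.51 with median-ratio scaling. For PWK, where it was negative, it was 0.15 with that scaling and 0.37 with equal lists, and the Pol II median in PWK was 0.34 with equal lists. With a replicate block, H3K27ac calls at gained sites numbered 814, 1632, 1726 and 1094 in BALB, NOD, PWK and SPRET. Pol II calls then numbered 0, 792, 1784 and 605. Same-numbered deviations also correlated for H3K27ac (0.653, 0.721, 0.692 and 0.507) and, in BALB and NOD, for Pol II (0.485 and 0.561). Each of these correlations rests on 2 pairs, and no label states what the numbers pair. H3K27ac calls in NOD were 54 with a pseudocount of 5, 73 with the filter, 0 with median-ratio scaling, 61 with edgeR and 529 with DESeq2, in PWK 77 with median-ratio scaling, 359 with edgeR and 430 with DESeq2, and in SPRET 517 with edgeR. Pol II calls in BALB were 23 with median-ratio scaling and 122 with DESeq2, in NOD 3 with a pseudocount of 5, 9 with median-ratio scaling, 23 with edgeR and 158 with DESeq2, in PWK 299 with equal lists and in SPRET 350 with DESeq2. Shares of all regions called with the block and the other settings are not given here. The counts therefore show how calls moved and do not compare gained sites with all regions. The cause of these shifts was not tested. At the named PWK and SPRET sites the block gave a Pol II call at Zfp385a and Anks1 in PWK and at Zfp36l2, Fth1 and Exo5 in SPRET and changed no other Pol II call of the sites chosen by size, score or sharing.

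Leaving out 1 library at a time, with a lone library assumed to vary like the other group, gave H3K27ac medians of -0.47 to 0.25 in BALB, 0.19 to 0.45 in NOD, -0.20 to 0.045 in PWK and 0.0033 to 0.23 in SPRET, and Pol II medians of 0.25 to 0.53, 0.17 to 0.43, 0.01 to 0.15 and -0.06 to 0.08. H3K27ac calls ran from 200 to 414, 0 to 567, 0 to 908 and 0 to 140, regions past the fold rule from 527 to 1047, 1051 to 1269, 1313 to 1893 and 657 to 1029, and Pol II calls from 0 to 112, 0 to 0, 64 to 447 and 11 to 102. Over 110 results at named sites, 892 alternative values kept direction and call, 108 gained the call, 155 lost it and 12 changed sign, all of them at Gm10800. At Gm10800 the Pol II log2 fold in NOD was -0.020 with edgeR and -0.023 with DESeq2 at the top peak and, without 1 library, -0.54 to 0.74 there and -0.21 to 0.60 at the neighbouring region. In BALB the Pol II value was 0.41 with the block and -1.49 to 0.41 without 1 library, and H3K27ac in BALB was -0.29 to 1.82 without 1 library. STAT6 depth is unknown, so a site without a peak may lie below the threshold of its list.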
